A study of Mus musculus with 9 samples.

Results

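The growth hormone and insulin/IGF axis was followed through 10 genes in mouse liver, *Ghr*, *Stat5b*, *Socs2*, *Cish*, *Igf1*, *Igfals*, *Igfbp2*, *Igfbp4*, *Insr* and *Irs1*. They were chosen by name for their place in the pathway, out of 51912 genes listed, with earlier results of these data known. Livers came from 9 mice of the genotype Apoe-/-Ndst1 f/f Alb-Cre+, fasted, 5 given an antisense oligonucleotide (ASO) against apoC-III and 4 given a control ASO, each at 50 mg/kg/week for 8 weeks. Both groups therefore lacked apoE and, because Cre was driven by the albumin promoter, lacked the heparan sulfate enzyme NDST1 in hepatocytes. Whole liver was sequenced after depletion of ribosomal RNA. The age, sex and diet of these mice are not given in the sources used here.

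Growth hormone from the pituitary binds its receptor on hepatocytes, which activates the kinase JAK2 and the transcription factors STAT5A and STAT5B. STAT5B switches on IGF-1 and its carrier, the acid labile subunit, and also the feedback inhibitors SOCS2 and CIS, which damp the receptor. IGF-1 circulates bound to carrier proteins, and insulin acts on the liver through its own receptor and the IRS adaptor proteins, so that fasting, insulin and growth hormone meet in the same set of liver genes.

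STAT5 binds a palindrome written TTCNNNGAA, where N is any base, and this run of letters reads the same on both strands. It was present in 2726 of 32851 RefSeq promoters (8.30%), taken as 250 bases before to 50 bases after a start site. Of the 10 genes, 8 had a promoter in that collection, with 13 promoters in all. The letters were in 3 of these 13 promoters, which belonged to 2 of the 8 genes, *Cish* and *Igfals*. A share over genes instead of promoters was not computed for the collection. *Igf1*, also named above as switched on by STAT5B, did not hold the letters in the stretch searched. The matches of *Cish* and *Igfals* are shown because both genes are textbook STAT5 targets, with the matched letters in capitals on the plus strand of GRCm38.p6.
*Cish*, chr9:107296654-107296683: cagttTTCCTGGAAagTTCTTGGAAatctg
*Igfals*, first promoter, chr17:24877597-24877626: cgatctataatTTCTCAGAAaagaggctga
*Igfals*, second promoter, chr17:24878162-24878191: tctgccaggtgTTCCTAGAAgaggccctgg
The *Cish* stretch holds the letters 2 times, which was the case in 150 promoters (0.457%), and lies in a 5′ exon of 1 of its 5 GENCODE transcripts. The *Igfals* stretches lie 236 and 58 bases before their RefSeq starts, inside 2 and 3 of the 6 *Igfals* transcripts and in no exon. The FOXO letters GTAAACA, searched on both strands, were in 1199 promoters (3.65%). Among the 13 promoters of the 8 genes they were in 1, the second promoter of *Igfals*.
*Igfals*, second promoter, chr17:24877981-24878010: gggcagcaTGTTTACctggggtctttgtac
A match of letters is a description of the sequence and does not show that a factor binds there.

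The authors deposited TPM (transcripts per 1000000), a length-corrected share of each library that keeps no sequencing depth, so no counting interval could be given for a single liver. Copies of the 7SL RNA took 64.0% to 83.6% of TPM with the apoC-III ASO and 66.3% to 77.6% with the control ASO. Mitochondrial genes took a further 8.72% to 28.3% and 17.6% to 26.3%, and nuclear protein-coding genes 3.04% to 5.31% and 1.94% to 8.64%. Values are therefore given as normalized TPM, in which the nuclear protein-coding genes of each liver sum to 1000000 before division by a median-of-ratios factor. The lowest protein-coding share and the lowest factor (0.496, against 0.950 to 1.44 in apoC-III ASO livers) both belonged to control ASO replicate 4. The comparisons of the axis genes and of *Apoc3* were also run without it, as without each other liver. Differences of genes on the wider lists and ratios between genes are given with it only. It was the highest control liver for *Cyp4a12b*, *Lrat* and *Dcn*, and the lowest for *Socs3* and the ratio of *Stat5b* to *Stat5a*. How far those results rest on it is not shown. The target of the ASO, *Apoc3* (chromosome 9 of GRCm38, 46232933 to 46235636, minus strand), was at 334 to 622 normalized TPM in apoC-III ASO livers and at 3169 to 4291 in control ASO livers. Its mean was 87.4% lower, with p = 0.0159 by an exact permutation test (two-sided), which is as small as these group sizes allow. All 8 hepatocyte markers on the list were present, with a summed level of 21559 to 48933 normalized TPM under the apoC-III ASO and 28480 to 42422 under the control ASO, and none was called.

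None of the 10 genes differed between the groups by the criteria used, which were over 1.5-fold and an adjusted p under 0.05 in limma-trend. The lowest adjusted p among them was 0.871. In the same test 2 of the 11968 genes tested were called (0.0167%), *Apoc3* and *Anpep*. All 10 genes were among those tested. The log2 fold change was below 0 for 5 of them and above 0 for 5, against 50.1% and 49.9% of all genes tested, and their median log2 fold change was −0.083, against −0.0013 for all genes. An unadjusted p under 0.05 was reached by 1 of the 10, *Stat5b*, against 667 of all genes (5.57%). The groups overlapped in all 10, whereas they did not overlap in 1.83% of all genes tested. Data were simulated with the mean and spread of all genes tested and with independent noise for each gene. In them, 50 genes picked at random were changed by each fold, all at once. This test called 1 of 50 changed 1.5-fold, 7 of 50 changed 2-fold, 38 of 50 changed 4-fold and 46 of 50 changed 8-fold. There were 5 false calls. Many changed genes ease the adjusted threshold, so fewer would be found where few genes change. A change below 4-fold would therefore often have been missed. *Socs2* and *Cish* were more variable than most genes tested, so for them larger changes could have been missed too. In whole liver, fewer cells of a type cannot be told apart from less RNA per cell.

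**Figure D1:**
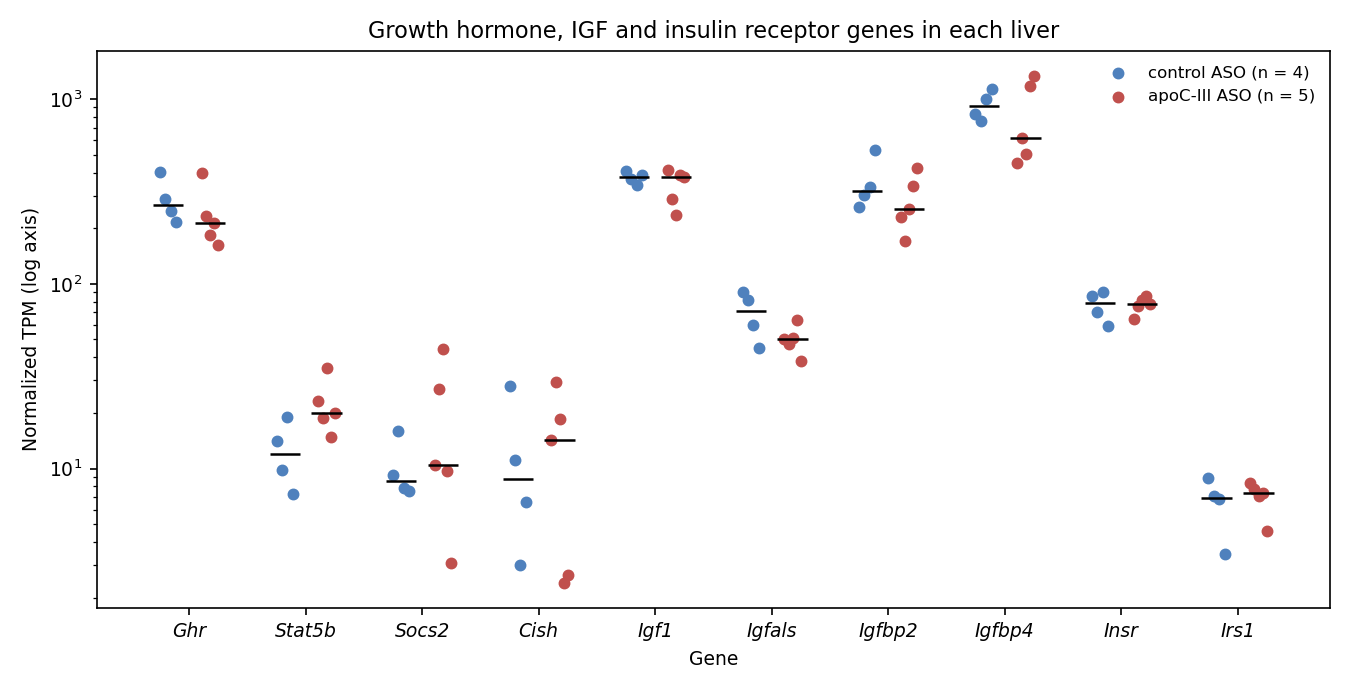
Normalized TPM on a log axis for the 10 genes, with 1 point per liver (blue, control ASO, n = 4; red, apoC-III ASO, n = 5) and a bar at each group's median. The groups overlap in every gene, and *Socs2* and *Cish* are spread most widely between livers.

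Measured per length, the genes spanned a wide range of levels. The mean normalized TPM over all 9 livers ran from 866 for *Igfbp4* through 357 for *Igf1*, 316 for *Igfbp2*, 260.0 for *Ghr*, 76.8 for *Insr*, 58.6 for *Igfals*, 17.98 for *Stat5b*, 15.03 for *Socs2* and 12.9 for *Cish* to 6.83 for *Irs1*. Between neighbors in that order, the ranges over livers were separate only for *Igfbp4* above *Igf1*, *Ghr* above *Insr* and *Igfals* above *Stat5b*, each in 9 of 9 livers. For the other neighbors the upper gene was higher in 5 to 7 of 9 livers, so their order is not resolved beyond the spread.

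The growth hormone receptor gene *Ghr* (ENSMUSG00000055737, chromosome 15, 3317760 to 3583492, minus strand, GRCm38 as for all genes here) was at 396, 234, 184, 214 and 163 normalized TPM in apoC-III ASO replicates 1 to 5. It was at 401, 287, 248 and 215 in control ASO replicates 1 to 4. Replicate 1 was the highest liver of each group, at a like level, and the remaining livers overlapped. On the log2 scale the difference was −0.31 (SE 0.29, 95% interval −0.93 to 0.32, adjusted p = 0.942 from limma-trend), and it moved from −0.13 without control ASO replicate 1 to −0.50 without apoC-III ASO replicate 1.

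*Stat5b* (ENSMUSG00000020919, chromosome 11, 100780731 to 100850724, minus strand), which carries most of the growth hormone signal in liver, was the member with the largest difference. It was at 23.3, 18.7, 34.9, 14.8 and 20.003 normalized TPM in apoC-III ASO livers and at 14.1, 9.82, 18.997 and 7.24 in control ASO livers. Means were 22.3 ± 7.66 (SD, n = 5) and 12.5 ± 5.15 (SD, n = 4). Control ASO replicate 3 lay above apoC-III ASO replicates 2 and 4, so the groups overlapped. Its log2 fold change was 0.81 (SE 0.31, 95% interval 0.13 to 1.48, limma-trend unadjusted p = 0.0233, adjusted p = 0.871). An exact two-sided permutation test of the single gene gave p = 0.0476. Left out in turn, apoC-III ASO replicate 3 and control ASO replicates 2 and 4 each brought the limma-trend unadjusted p above 0.05, to 0.0603, 0.0621 and 0.0737. Without any 1 of the other livers it stayed below 0.05. It then ran from 0.00814 without control ASO replicate 3 to 0.0442 without apoC-III ASO replicate 1. Over the 20 alternative settings in which it was tested the sign did not change, the log2 fold change ran from 0.16 to 1.24 and the adjusted p in limma-trend from 0.451 to 0.9996.

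*Stat5a*, a near-identical neighbor on chromosome 11 whose reads a quantifier may divide with *Stat5b*, differed by 0.03 on the log2 scale (SE 0.26, limma-trend adjusted p = 0.998). It was at 5.29 to 13.6 normalized TPM in apoC-III ASO livers and at 7.07 to 8.78 in control ASO livers. The ratio of *Stat5b* to *Stat5a*, which does not depend on the scaling, was 2.31 to 2.87 with the apoC-III ASO (median 2.71) and 0.825 to 2.69 with the control ASO (median 1.49). The ratio overlapped through control ASO replicate 3 alone, at 2.69. How the reads were divided between these genes was not tested.

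The feedback inhibitor genes *Socs2* and *Cish*, both induced within hours by growth hormone, were the most variable of the 10. *Socs2* (ENSMUSG00000020027, chromosome 10, 95385362 to 95417180, minus strand) was at 10.4, 26.98, 44.4, 9.64 and 3.10 normalized TPM in apoC-III ASO livers and at 9.28, 15.9, 7.89 and 7.59 in control ASO livers. The highest and the lowest liver both belonged to the apoC-III ASO group and differed 14.3-fold, against 2.10-fold among control ASO livers. The log2 fold change was 0.43 (SE 0.58, 95% interval −0.84 to 1.70, adjusted p = 0.962 from limma-trend), and it moved from 0.01 without apoC-III ASO replicate 3 to 0.89 without apoC-III ASO replicate 5.

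*Cish* (ENSMUSG00000032578, chromosome 9, 107296026 to 107302784, plus strand), whose promoter letters are given above, was at 14.2, 29.4, 18.5, 2.42 and 2.66 normalized TPM in apoC-III ASO livers. It was at 27.97, 11.1, 3.003 and 6.56 in control ASO livers. Both groups held livers at the top and at the bottom of the range, with 12.1-fold and 9.31-fold between their extremes. The difference on the log2 scale was 0.01 (SE 0.72, 95% interval −1.57 to 1.60, adjusted p = 0.998 from limma-trend), an interval too wide to call the groups alike. The within-group SD on the log2 scale was 1.06 for *Socs2* and 1.35 for *Cish*, above 95.8% and 98.2% of all genes tested, whose median was 0.439.

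*Igf1* (ENSMUSG00000020053, chromosome 10, 87858265 to 87937042, plus strand), the hormone gene of the axis, was steadier. It was at 412, 288, 236, 386 and 377 normalized TPM in apoC-III ASO livers and at 410.3, 370.5, 344 and 387 in control ASO livers. Apart from apoC-III ASO replicates 2 and 3, all livers lay between 344 and 412. *Igf1* had a log2 fold change of −0.18 (SE 0.22, 95% interval −0.66 to 0.30, adjusted p = 0.952 from limma-trend), and the within-group SD of 0.27 was above that of 12.8% of all genes. With 1 liver left out the difference of *Igf1* ran from −0.25 without apoC-III ASO replicate 1 to −0.06 without apoC-III ASO replicate 3. The ratio of *Igf1* to *Ghr* was 1.04 to 2.31 with the apoC-III ASO and 1.02 to 1.80 with the control ASO.

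*Igfals* (ENSMUSG00000046070, chromosome 17, 24865997 to 24882010, plus strand) encodes the acid labile subunit, which holds IGF-1 in a large complex in blood. It was at 50.3, 47.4, 51.1, 63.5 and 38.1 normalized TPM in apoC-III ASO livers and at 90.2, 81.9, 60.0 and 45.2 in control ASO livers. Control ASO replicates 1 and 2 lay above every apoC-III ASO liver, and control ASO replicates 3 and 4 lay within the apoC-III ASO range. Its log2 fold change was −0.43 (SE 0.25, 95% interval −0.97 to 0.11, limma-trend unadjusted p = 0.107, adjusted p = 0.900). With 1 liver left out it ran from −0.29 without control ASO replicate 1 (limma-trend unadjusted p = 0.299) to −0.61 without control ASO replicate 4 (limma-trend unadjusted p = 0.0218, adjusted p = 0.837).

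The binding protein gene *Igfbp2* (ENSMUSG00000039323, chromosome 1, 72824503 to 72852474, plus strand), whose liver expression is known to rise when insulin is low, was at 229, 169.8, 254, 339 and 423 normalized TPM in apoC-III ASO livers. It was at 262, 304, 334 and 531 in control ASO livers. Control ASO replicate 4 was the highest of all 9 livers. Its log2 fold change was −0.35 (SE 0.30, 95% interval −1.01 to 0.30, adjusted p = 0.923 from limma-trend), −0.14 without that liver and −0.51 without apoC-III ASO replicate 5.

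*Igfbp4* (ENSMUSG00000017493, chromosome 11, 99041244 to 99054392, plus strand), which encodes an inhibitory IGF binding protein, was the most abundant of the 10. It was at 449, 611, 501, 1180.3 and 1331 normalized TPM in apoC-III ASO livers and at 827, 758, 995 and 1137 in control ASO livers. The apoC-III ASO livers lay on both sides of the control range, with replicates 1 to 3 below it and 4 and 5 above it. On average the log2 fold change was −0.32 (SE 0.35, 95% interval −1.07 to 0.44, adjusted p = 0.948 from limma-trend), −0.14 without apoC-III ASO replicate 1 and −0.52 without replicate 5.

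The insulin receptor gene *Insr* (ENSMUSG00000005534, chromosome 8, 3122061 to 3279617, minus strand) was at 64.4, 75.7, 81.4, 86.2 and 77.6 normalized TPM in apoC-III ASO livers and at 85.9, 70.6, 90.5 and 58.9 in control ASO livers. The control range enclosed the apoC-III ASO range. Its log2 fold change was 0.02 (SE 0.20, 95% interval −0.41 to 0.46, adjusted p = 0.998 from limma-trend), with a within-group SD of 0.22 that was above that of 5.59% of all genes. *Irs1* (ENSMUSG00000055980, chromosome 1, 82233101 to 82291416, minus strand), the adaptor that links that receptor to PI3 kinase, was at 8.36, 7.77, 7.09, 7.35 and 4.59 normalized TPM against 8.92, 7.10, 6.80 and 3.46. Each group had 1 liver well below the rest, and the log2 fold change was 0.12 (SE 0.27, 95% interval −0.48 to 0.72, adjusted p = 0.984 from limma-trend).

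**Figure D2:**
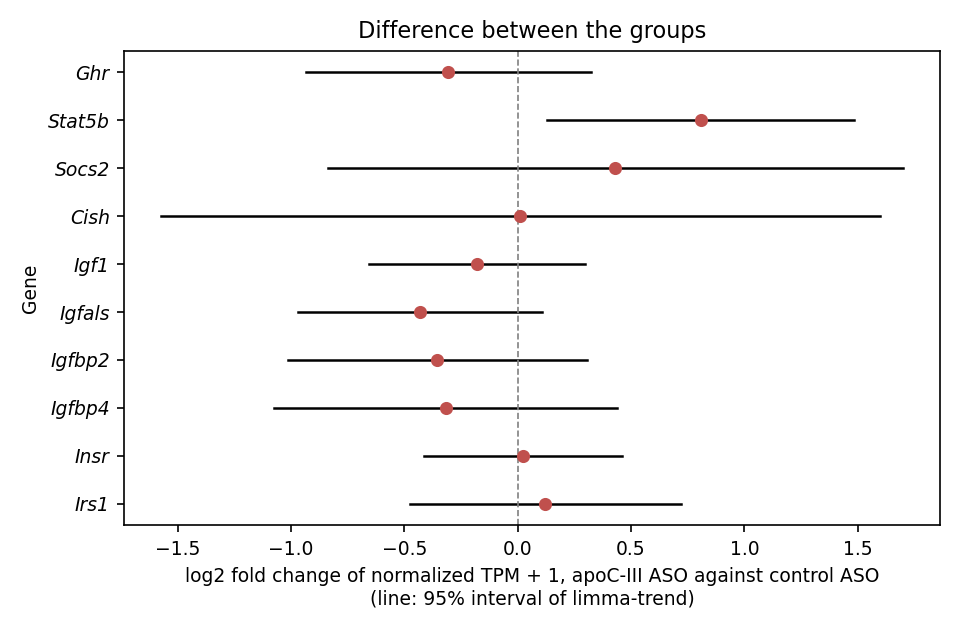
Log2 fold change of normalized TPM + 1, apoC-III ASO against control ASO, for the 10 genes (points), with the 95% interval of limma-trend (lines) and a dashed line at 0. The interval of *Stat5b*, 0.13 to 1.48, lies above 0 before adjustment over all genes, and those of *Socs2* and *Cish* are the widest.

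For 6 pairs of a hormone, receptor or factor with its partner, the values of the 9 livers were correlated. The closest positive relation was between *Socs2* and *Cish* (Pearson r = 0.66, permutation p = 0.0486, adjusted p = 0.146 over 6 pairs; Spearman rho = 0.62, permutation p = 0.0857, adjusted p = 0.425). *Socs2* and *Igf1* moved in opposite directions by Pearson r (−0.79, permutation p = 0.0118, adjusted p = 0.0708) and less closely by rank (Spearman rho = −0.47, permutation p = 0.213, adjusted p = 0.425). Neither passed the adjusted threshold. Without apoC-III ASO replicates 2 and 3, the livers farthest from the median of *Socs2*, r was 0.50 for *Socs2* with *Cish* and 0.13 for *Socs2* with *Igf1*, so the second relation rested on those livers. The adjusted p of the other 4 pairs ran from 0.268 to 0.508 in the permutation test of Pearson r.

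The wider pathway was read from lists of genes other than the 10. Of all genes tested, 49.9% were higher and 50.1% lower with the apoC-III ASO, beside which the counts of each list stand. In the growth hormone receptor and JAK-STAT list, 12 of 13 genes were tested (*Socs1* was too low), 9 were higher and 3 lower, and 0 were called. *Socs3*, an inhibitor induced mainly by cytokines, was the single gene of the list with an unadjusted p under 0.05, which 3% of all genes reached upward (limma-trend log2 fold change 1.85, SE 0.83, adjusted p = 0.876). It was at 34.2, 63.5, 21.02, 2.96 and 29.3 normalized TPM in apoC-III ASO livers and at 12.8, 4.64, 13.9 and 0.362 in control ASO livers, so 1 apoC-III ASO liver lay among the controls. The adaptor gene *Sh2b1* was the only 1 on the list without overlap, which was absent in 1.83% of all genes tested. It was at 22.4 to 29.9 against 17.98 to 21.8 normalized TPM (log2 fold change 0.36, SE 0.18, adjusted p = 0.883 from limma-trend).

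In the IGF list 8 of 13 genes were tested, 4 were higher and 4 lower, and none was called or reached an unadjusted p under 0.05. *Igfbp1*, a binding protein gene that insulin represses, was at 60.5, 53.4, 27.4, 62.1 and 126 normalized TPM in apoC-III ASO livers and at 14.48, 20.9, 58.4 and 509 in control ASO livers. Control ASO replicate 4 was thus above every other liver. All 28 insulin receptor pathway genes were tested, with 17 higher and 11 lower, and all 10 targets of FOXO1 and insulin, with 6 higher and 4 lower. None of these was called or had an unadjusted p under 0.05. *Pdk4*, which spares glucose in fasting, was at 24.8 normalized TPM in control ASO replicate 4 and at 1.62 to 2.71 in the other controls, against 3.67 to 23.5 in apoC-III ASO livers. The part of such differences between livers in the values of the 10 genes was not tested.

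Genes whose liver expression depends on the sex-specific rhythm of growth hormone release were a further readout. Of 15 genes higher in males, 2 were higher and 13 lower with the apoC-III ASO, with a median log2 fold change of −0.14 and 0 called. Of all genes tested 50.1% were lower. *Cyp4a12b*, a fatty acid hydroxylase gene, reached an unadjusted p under 0.05, as 2.57% of all genes did downward (limma-trend log2 fold change −0.64, SE 0.27, adjusted p = 0.876). Its neighbor *Cyp4a12a* on chromosome 4, on the same list, differed by −0.11 (SE 0.22, limma-trend adjusted p = 0.978). How reads were divided between these 2 genes was not tested. *Serpina1e*, a protease inhibitor gene, did not overlap between groups, as was so for 1.83% of all genes tested. It was at 151 to 3733 against 4579 to 6674 normalized TPM (log2 fold change −1.70, SE 0.81, adjusted p = 0.882 from limma-trend), and belongs to a family of near-identical copies. Of 15 genes higher in females, 5 were tested, all 5 had a lower mean and 0 were called, and *Sult2a1* and *Sult3a1* were listed at 0 in all livers. *Cyp2a4*, the most divergent of them, was at 0.469, 69.8, 50.6, 1.36 and 181 normalized TPM in apoC-III ASO livers and at 96.1, 132, 205 and 153 in control ASO livers (log2 fold change −2.92, SE 1.25, limma-trend unadjusted p = 0.0385, adjusted p = 0.876).

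Clock genes, which set the time of day of many liver transcripts, differed between livers as well. Of 15 listed, 14 were tested, 4 were higher and 10 lower, and 0 were called, while 2 higher and 2 lower reached an unadjusted p under 0.05 in limma-trend, against 3% and 2.57% of all genes. *Arntl* was at 17.7, 11.1, 30.9, 0.740 and 2.74 normalized TPM in apoC-III ASO livers and at 0.320 to 2.46 in control ASO livers. *Dbp* was at 2.92, 22.2, 2.70, 152 and 97.7 in apoC-III ASO livers and at 68.2 to 103 in control ASO livers. ApoC-III ASO replicates 1 to 3 were thus apart from all other livers in both genes. The same livers had the highest *Cish* of their group and the 3 lowest *Igfbp4* values of all 9. The part of the clock genes in those values was not tested, and collection times are not given in the sources used here.

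**Figure D3:**
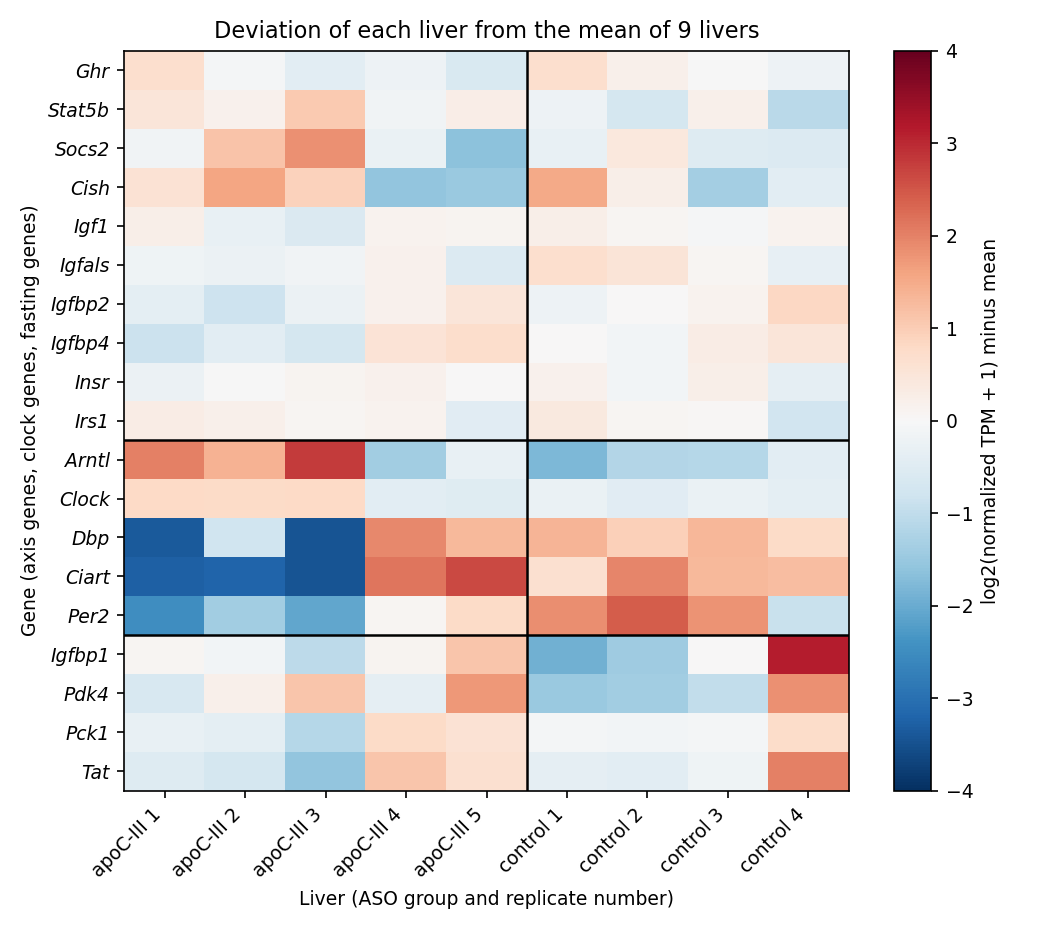
Deviation of each liver (columns) from the mean of 9 livers in log2(normalized TPM + 1), in color, for the 10 genes, 5 clock genes and 4 genes that respond to fasting (rows). ApoC-III ASO replicates 1 to 3 stand apart in the clock genes, and control ASO replicate 4 in *Igfbp1* and *Tat*.

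Markers of other liver cells were compared in the same way, and 0 were called. Of 8 macrophage and leukocyte genes 4 were higher and 4 lower, with summed levels of 79.6 to 123 normalized TPM with the apoC-III ASO and 77.9 to 128 with the control ASO. Of 8 endothelial genes 3 were higher and 5 lower (123 to 363 against 167 to 322 summed), and of 3 tested cholangiocyte genes 1 was higher and 2 lower (37.9 to 81.8 against 41.0 to 121 summed over the list). Of 8 stellate cell and fibroblast genes 2 were higher and 6 lower, at 133 to 165 against 154 to 276 summed, and 2 of the lower ones (*Lrat* and *Dcn*) reached an unadjusted p under 0.05, against 2.57% of all genes. *Lrat*, the retinol-storing enzyme gene of stellate cells, did not overlap between groups, as was so for 1.83% of all genes tested. It was at 0.977 to 1.63 against 2.29 to 5.28 normalized TPM (log2 fold change −0.89, SE 0.26, adjusted p = 0.842 from limma-trend). *Dcn*, a matrix proteoglycan gene, was at 70.0 to 102 against 89.7 to 177 normalized TPM (log2 fold change −0.57, SE 0.24, adjusted p = 0.876 from limma-trend). None of the macrophage, endothelial and cholangiocyte genes had an unadjusted p under 0.05. The part of these cells in the values of the 10 genes was not tested.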

How the data were processed

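Liver RNA of 5 apoC-III ASO and 4 control ASO mice was analysed, grouped by the sample labels. The authors deposited TPM per gene. Per the labels, the submitters' processing notes name kallisto 0.43.1 and GRCm38, whereas the study's methods name STAR, featureCounts and DESeq2, whose counts were not used here. Depth is unknown from TPM.

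Identifiers were matched to GENCODE M21 (99.6% of 51912). Values of nuclear protein-coding genes were set to a sum of 1000000 in each liver, then divided by median-of-ratios factors over 12263 genes above 0 in all livers. The 11968 genes with a mean of at least 1 were tested in limma 3.58.1 (R 4.3.3; lmFit, then eBayes with a trend) without covariates, on log2(value + 1), a scale that understates the fold changes of low genes. Calls needed over 1.5-fold and an adjusted p (Benjamini-Hochberg) under 0.05. Figures were drawn with matplotlib 3.10.9, and other steps ran in Python 3.11.15 with scipy 1.17.1, pandas 2.3.3 and numpy 2.4.6. The test was tested on simulated data. Promoter sequences are from RefSeq (GRCm38.p6), searched for letters only, and none was used for *Socs2* and *Insr*.

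The 10 genes and the 12 lists were chosen with earlier results of these data known. Named are the 10 genes, *Apoc3*, of each list up to 4 genes by smallest unadjusted p, and for *Igf1*, *Socs2*, *Igfbp2* and *Irs1* the 3 most correlated genes. Others, such as *Anpep*, *Stat5a*, *Igfbp1*, *Dbp*, *Cyp4a12a*, *Sult2a1*, *Sult3a1*, *Tat* and *Socs1*, were named after their values were seen. Exact permutation p-values double the smaller tail, a definition set after the values were seen. It gave 621 genes at p under 0.05, against 631 when absolute differences were counted. Either way 0 were called, which the small number of splits all but fixed in advance. Alternatives were other scalings, pseudocounts, filters and eBayes settings, array weights, each liver left out, a replicate block and a permutation test per gene. TPM as deposited without control ASO replicate 4 was added after seeing the data.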

Additional observations from a re-analysis of the deposited data

Results flagged for a closer look

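A liver far from the rest of its group was looked for in the genes named here by rule (the 10 genes of the axis, *Apoc3*, up to 4 genes of each list by smallest p and the genes most like 4 of the 10) and in 7 genes named or plotted after their values were seen. These 76 genes gave 152 groups of values, and the other genes of the lists were not examined. Such a liver was found 18 times, and none was in the 10 genes of the axis. The cutoff passes about 1 in 20 groups of independent, normally distributed values. These groups share the same livers and some genes were picked by their values, so the count cannot be set against that rate. The values below are normalized TPM, with the range of the other livers of the group in brackets.

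Of the 18, 9 were in control ASO replicate 4, always the highest of its group. *Igf2* was at 11.1 (0.476 to 0.569), *Pdk4* at 24.8 (1.62 to 2.71), *Pck1* at 3108 (1699 to 1769), *Ppargc1a* at 89.8 (13.2 to 23.7), *Cyp2e1* at 7012 (3502 to 3953) and *Ptprc* at 18.7 (10.3 to 11.7). *Igfbp1* was at 509 (14.48 to 58.4), *Tat* at 4172 (783 to 923) and *Nanog* at 5.60 (1.33 to 1.76) in the same liver. Control ASO replicate 2 was highest for *Ppard* at 6.05 (4.33 to 4.57). Control ASO replicate 3 was lowest for *Cps1* at 975 (1117 to 1144) and highest for *Marco* at 9.59 (0.841 to 1.87).

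In the apoC-III ASO group, replicate 4 was lowest for *Serpina1e* at 151 (2963 to 3733). Replicate 5 was highest for *Cux2* at 2.59 (0.195 to 0.696), *Dcn* at 102 (70.0 to 74.7) and *Krt19* at 4.35 (0 to 1.22). Replicate 2 was highest for *Tek* at 5.84 (2.58 to 3.35), and replicate 3 for *Sox9* at 4.54 (1.45 to 2.16).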

How the results depend on the processing

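None of the 10 genes was called in any setting in which it was tested. In TPM as deposited and with factors on the TPM of all genes 6 of the 10 were tested, and 7 in TPM as deposited without control ASO replicate 4, while all 10 were tested in the other settings. The count of all genes called, 2 as reported, was 11 in TPM as deposited, 4 in TPM as deposited without control ASO replicate 4, 1 after rescaling without the factors, without a filter on low values or without an eBayes trend, and 0 in the exact permutation test (621 genes had an unadjusted p under 0.05 there, and 667 did in limma-trend). With 126 splits of the livers, the smallest p of the permutation test was 0.0159 before adjustment over 11968 genes. Its 0 calls were therefore all but fixed in advance, for *Apoc3* too. Leaving out 1 liver at a time gave 1 to 3 calls. The decrease of *Apoc3* stayed between 82.8% and 88.6%. With a replicate block, for which the labels share numbers 1 to 4, 3 genes and 0 of the 10 were called. In it 930 genes had a limma-trend unadjusted p under 0.05, among them 2 of the 10. These were *Stat5b* (SE 0.20, limma-trend unadjusted p = 0.00407, adjusted p = 0.521) and *Igfbp2* (SE 0.20, limma-trend unadjusted p = 0.0370, adjusted p = 0.613). The labels do not say that equal numbers are pairs, and the main test took no pairs. Same-numbered livers correlated at 0.0280 to 0.190 in their deviations, and other-numbered livers at −0.206 to 0.175. Not every liver correlated best with its own number.

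Signs of small differences depended on the scaling. Rescaling without the factors set the median of all genes to 0.41 in log2 fold change, and *Ghr* was then 0.17, *Igf1* 0.30, *Igfals* 0.038, *Igfbp2* 0.12 and *Igfbp4* 0.16. In TPM as deposited (median 0.11) *Igf1* was 0.12 and *Igfbp4* 0.011. *Cish* was −0.0012 with quantile normalization, −0.020 and −0.0031 with pseudocounts of 0.1 and 0.5, and −0.44 to 0.52 with 1 liver left out. *Insr* was −0.096 and *Irs1* −0.014 with array weights, *Insr* was −0.35 in TPM as deposited without control ASO replicate 4 (median of all genes −0.23), and with 1 liver left out *Insr* ran from −0.091 to 0.11 and *Irs1* from −0.11 to 0.27.

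In TPM as deposited, where livers differ in scale, r was 0.70 for *Socs2* with *Cish* (permutation test, adjusted p = 0.0470), 0.38 for *Socs2* with *Igf1*, 0.93 for *Igf1* with *Igfals*, 0.97 for *Ghr* with *Igf1*, 0.92 for *Igfbp2* with *Igf1* and 0.92 for *Insr* with *Irs1*. Without its 2 farthest livers *Socs2* with *Igf1* was 0.13 on the normalized scale. The limits are TPM without depth, small groups and protein-coding shares of 1.94% to 8.64%.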

Other observations

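The genes most like 4 of the 10 over the 9 livers were looked up among all genes tested, by Pearson r of log2(normalized TPM + 1). For *Igf1* they were *B4gat1* (r = 0.944), *Yipf1* (r = 0.925) and *Rpa3* (r = 0.915). For *Socs2* they were *Ppard* (r = 0.949), *Syn3* (r = 0.940) and *Ifit2* (r = 0.925). For *Igfbp2* they were *Cacng4* (r = 0.978), *Nanog* (r = 0.9753) and *Fam49a* (r = 0.964). For *Irs1* they were *Pam16* (r = 0.959), *Kansl2* (r = 0.952) and *Erlin1* (r = 0.949). These values describe the 9 livers, which share their scaling, and were picked as the highest of all genes tested. By rank, Spearman rho ran from 0.661 for *Rpa3* with *Igf1* to 0.983 for *Nanog* with *Igfbp2*. Several of these genes were low, such as *Nanog* at 0.232 to 5.60 normalized TPM. *Rpa3* was at 0 in apoC-III ASO replicates 2 and 3, and *Pam16* was at 0 in control ASO replicate 4.

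Ratios between carriers and hormone overlapped between the groups. *Igfals* per *Igf1* was 0.101 to 0.216 with the apoC-III ASO and 0.117 to 0.221 with the control ASO, and *Igfbp4* per *Igf1* was 1.09 to 3.53 and 2.01 to 2.94.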
